A study of Tribolium castaneum with 9 samples.

Results

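Vitellogenin receptor (LOC657346, RefSeq symbol yl) and bicaudal C (LOC663844, RefSeq symbol BicC) are a pair of genes with known roles in oocytes, and their RNA was followed across 9 libraries of the red flour beetle Tribolium castaneum. They were selected on the levels and fold changes they showed in these same libraries, so their levels and differences are given without a test. They are 2 of the 5467 genes in the deposited table, and both passed the filter on low counts. The libraries fall into 3 groups of 3: fat body of adults exposed to carbonyl sulfide (COS, a fumigant gas), Malpighian tubules of adults exposed to COS, and whole bodies of untreated adults. All the beetles carried the label of a susceptible phenotype. The labels state no sex, dose or exposure time. They also do not say whether replicates came from separate animals, so every p-value measures only the spread between these libraries, which may be technical. Between either organ and the whole body, tissue and treatment changed together and cannot be told apart.

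Insect egg yolk is made from vitellogenin, a protein that the fat body secretes into the blood and that growing oocytes take up. The vitellogenin receptor sits on the oocyte surface and carries vitellogenin into the cell by clathrin-coated endocytosis. Its annotation in the deposited table lists low-density lipoprotein receptor class A and class B repeats and EGF-like domains, the make-up of the lipoprotein receptor family. Bicaudal C is an RNA-binding protein with K Homology domains and a sterile alpha motif domain, both listed in the table's annotation. In Drosophila it acts during oogenesis, where it recruits the deadenylase machinery to target messages. In bulk RNA, fewer cells of a type and less RNA per cell cannot be told apart.

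Library totals ran from 13435869 to 19866421 reads. Each listed gene passed a 2-fold difference in some comparison of the authors (a log2 value of 1 or more in size), so shares of changed genes are high throughout. Of 38 tubule markers such as V-ATPase subunits, 22 were higher and 3 lower in tubules than in whole bodies (edgeR, adjusted p under 0.05; 32.6% of all genes tested were called higher and 30.2% lower), and their summed level was 6940 to 9170 CPM (a gene's reads scaled to a common library size) in tubules against 2313 to 2529 CPM in whole bodies. Of 17 fat body markers, 6 were higher and 10 lower in fat body than in whole bodies (median log2 fold change -2.03; 32.2% of all genes tested were called higher and 36.9% lower), and 7 were higher and 5 lower in fat body than in tubules (median 0.05; 38.8% and 41%). Their summed level was 7873 to 18244 CPM in fat body, 1219 to 1810 CPM in tubules and 7227 to 8675 CPM in whole bodies. The most abundant of them, apolipophorins (LOC663181), lipid carrier proteins of the fat body, averaged 6689 ± 4356 CPM in fat body, 245 ± 130 CPM in tubules and 2251 ± 347 CPM in whole bodies (SD, n = 3 each). Fat body libraries were also rich in muscle RNA, with a summed 53458 to 65603 CPM over 54 muscle markers, against 5313 to 6190 CPM in tubules and 24175 to 24893 CPM in whole bodies.

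The vitellogenin receptor was at its highest in the tubule libraries. It stood at 51.6, 19.7 and 7.02 CPM in fat body replicates 1 to 3, at 604, 202 and 857 CPM in tubule replicates 1 to 3, and at 57.2, 105 and 34.2 CPM in whole body replicates 1 to 3. These levels rest on 104 to 775 reads per fat body library, 2803 to 12820 reads per tubule library and 545 to 1665 reads per whole body library. The lowest tubule library lay 1.92-fold above the highest whole body library, so those groups did not overlap. Fat body and whole body overlapped, since fat body replicate 1 lay above whole body replicate 3. On the scale of log2(CPM + 1), the tubules stood 2.97 ± 0.78 above the whole body (SE, n = 3 each), the fat body changed by -1.55 ± 0.91 against the whole body, and the fat body changed by -4.52 ± 1.003 against the tubules.

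Bicaudal C gave nearly the same picture at fewer reads. Its level was 21.8, 8.58 and 1.42 CPM in fat body replicates 1 to 3, 270 (replicate 1), 85.1 (replicate 2) and 378 CPM (replicate 3) in tubules, and 17.3, 39.8 and 13.3 CPM in whole body replicates 1 to 3. The lowest tubule library was 2.14-fold above the highest whole body library, and fat body again overlapped with whole body. Fat body replicate 3 held only 21 reads of the gene (exact 95% Poisson interval 13 to 32.1, which covers counting error only). The log2(CPM + 1) level in tubules was 3.23 ± 0.79 above that of the whole body, that in fat body differed by -1.45 ± 1.05 from the whole body and by -4.68 ± 1.14 from the tubules (SE, n = 3 each). For both genes the order of the groups was tubules, whole body, fat body, and the last 2 in that order did not differ beyond their spread. Of all genes tested, 34.3% had tubule libraries wholly above the whole body libraries and 40.6% had fat body libraries wholly below the tubule libraries, and both genes belong to both sets, which their choice fixed.

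**Figure D1:**
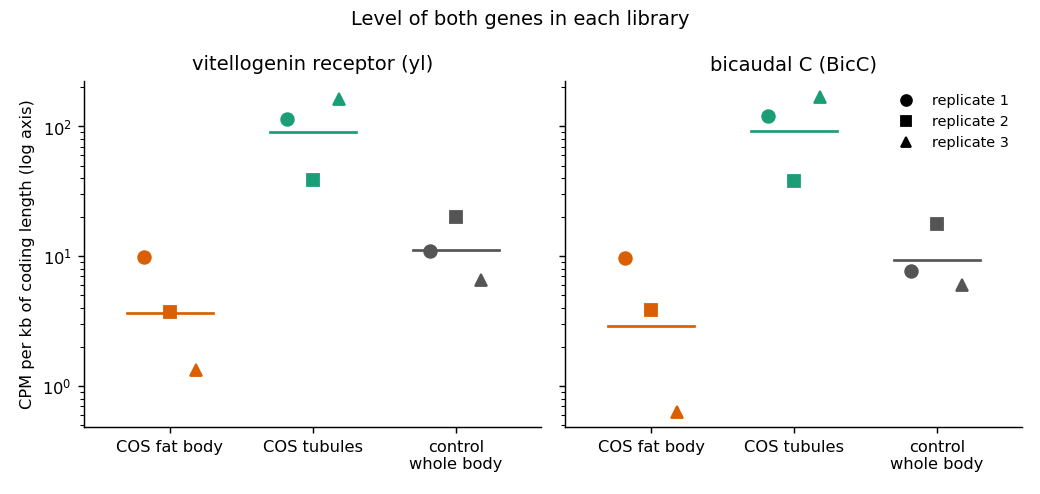
Level of vitellogenin receptor (left) and bicaudal C (right) in each library, as TMM-scaled CPM per kilobase of coding length on a log axis. Each symbol is 1 library, its shape gives the replicate number, and the horizontal line is the geometric mean of the 3 libraries of a group. The tubule libraries lie above all others, from 38.6 to 163 for the receptor and from 38.1 to 169 for bicaudal C.

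In the authors' deposited table the log2 fold changes of the receptor were -3.76 between fat body and tubules, -1.21 between fat body and control, and 2.55 between tubules and control. Those of bicaudal C in the authors' deposited table were -3.88, -1.02 and 2.86 in that order. With the authors' size factors in place of TMM, the log2(CPM + 1) difference between tubules and whole body was 2.49 for the receptor and 2.75 for bicaudal C.

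Spread within a group was wide for both genes, of like size in tubules and whole bodies and wider for bicaudal C in fat body. The highest library exceeded the lowest by 7.36-fold in fat body, 4.24-fold in tubules and 3.09-fold in whole bodies for the receptor. For bicaudal C these spans were 15.4-fold in fat body, 4.44-fold in tubules and 2.98-fold in whole bodies. The libraries also ranked the same way for both genes in every group. In fat body, replicate 1 was highest and replicate 3 lowest. In tubules, replicate 3 was highest and replicate 2 lowest. In whole bodies, replicate 2 was highest and replicate 3 lowest. Of the 5358 genes tested, 109 (2.03%) shared this order in all 3 groups.

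Per coding length, which leaves out untranslated regions, the genes had similar levels. The deposited FPKM and TPM values do not show this, because the gene length they were divided by is 69020 bases for the receptor, 13.2 times the 5244 bases that encode its 1748 residues, and 2891 bases for bicaudal C, 1.30 times the 2232 bases that encode its 744 residues. Over the table the median gene had a length 2.34 times its coding length. Divided by coding length instead, the receptor averaged 4.98 ± 4.39 CPM per kilobase in fat body, 105.7 ± 63.0 in tubules and 12.5 ± 6.93 in whole bodies, and bicaudal C averaged 4.75 ± 4.63 in fat body, 109.5 ± 66.4 in tubules and 10.5 ± 6.39 in whole bodies (SD, n = 3 each). The ratio of receptor to bicaudal C per coding kilobase was 0.951, 1.01 and 0.965 in tubule replicates 1 to 3. Their exact 95% counting intervals were 0.921 to 0.983, 0.944 to 1.08 and 0.935 to 0.996. It was 1.01 in fat body replicate 1 and 0.975 in replicate 2, but 2.11 in replicate 3, where the exact 95% counting interval ran from 1.31 to 3.55. Whole body replicates 1 to 3 had ratios of 1.41, 1.13 and 1.09, with intervals of 1.22 to 1.62, 1.03 to 1.24 and 0.928 to 1.28. The ratio therefore stayed within 1.41-fold of equality in 8 of the libraries while the receptor's level ran over a 43.6-fold range in those 8. In the authors' deposited TPM the same pair reads as unequal, with bicaudal C 4.82 to 10.7 times the receptor.

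**Figure D2:**
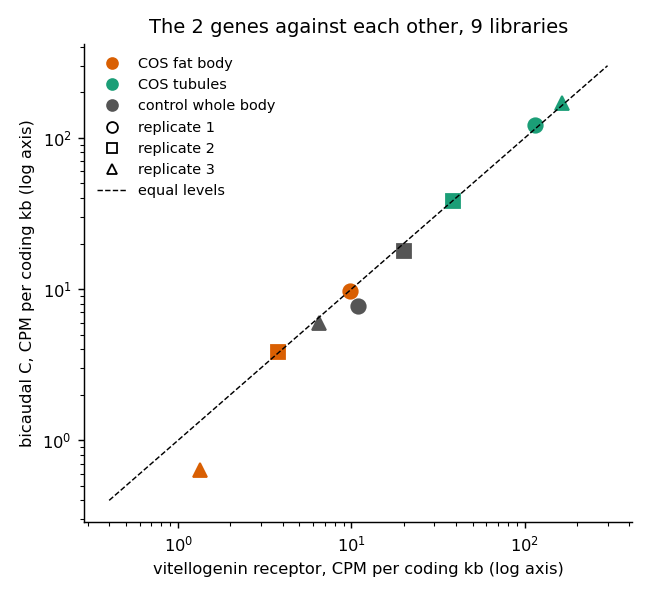
Level of bicaudal C against that of vitellogenin receptor in the 9 libraries, both in CPM per kilobase of coding length on log axes, with colour for the group and shape for the replicate number. The dashed line marks equal levels. Points lie along that line in every group, and fat body replicate 3, with 21 reads of bicaudal C, falls furthest from it.

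Likeness of pattern was measured as the root mean square difference between 2 genes' log2(CPM + 1) values over the 9 libraries, each gene taken as its deviation from its own group means. On this measure bicaudal C was the nearest of 5357 genes to the receptor and the receptor was the nearest of 5357 genes to bicaudal C, at 0.18 log2 units. The median gene lay 0.94 from the receptor, and a gene with no variation within groups would lie 0.90 from it. Taken as deviations from the mean over all 9 libraries, each was also the nearest gene to the other, at 0.21 log2 units. The median gene lay 2.20 from the receptor on that measure, and a gene with 1 level in all 9 libraries would lie 2.08 from it. The measure over all 9 libraries includes the differences between groups, on which the pair was chosen. The measure within groups uses the same libraries, whose earlier results were known when the pair was chosen. Nearness on either measure therefore gives no separate support. The 2 genes also ranked first to each other without fat body replicate 3, an alternative chosen after the data were seen. The first place is not fixed, however: with a pseudocount of 0.1 in place of 1, bicaudal C was the 6th nearest gene to the receptor within groups and the receptor the 4th nearest to bicaudal C. With the authors' TPM, in which the receptor's values go down to 0.21, bicaudal C ranked 652 in likeness to the receptor within groups and 348 over all 9 libraries. All these values share the libraries and their depth, and they are a description with no test.

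Second nearest to the receptor within groups was LOC103312877, which the deposited annotation leaves uncharacterised and RefSeq names fs(1)N. In Drosophila, fs(1)Nasrat is an eggshell protein needed for patterning of the embryo's ends. Its level was 21.3, 4.03 and 1.96 CPM in fat body replicates 1 to 3, 315, 107 and 475 CPM in tubule replicates 1 to 3, and 21.6, 37.7 and 10.03 CPM in whole body replicates 1 to 3. The next nearest were a hyaluronan mediated motility receptor (LOC663740), a spindle-associated protein in vertebrates, and the uncharacterised LOC100142427 and LOC103315004, at 0.22 log2 units each. The nearest to bicaudal C after the receptor were LOC103315004, LOC663740, the serine/threonine-protein kinase Nek8 (LOC660384) and LOC100142427. Over all 9 libraries a G2/mitotic-specific cyclin-B3 (LOC103312485) joined the 5 genes nearest to the receptor, at 0.27 log2 units.

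**Figure D3:**
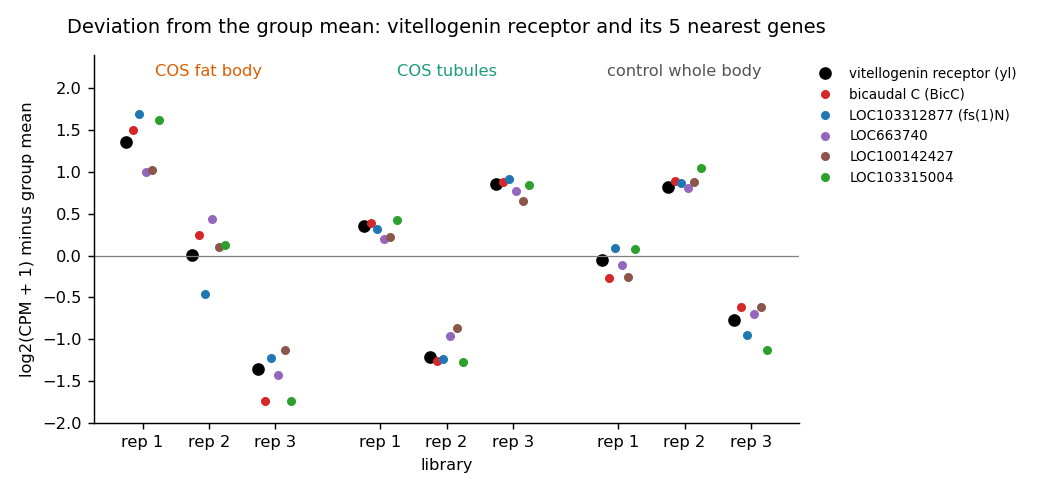
Deviation of log2(CPM + 1) from the group mean, in log2 units, for vitellogenin receptor and the 5 genes nearest to it, in each of the 9 libraries. All 6 genes fall below their group mean in fat body replicate 3, tubule replicate 2 and whole body replicate 3, and above it in fat body replicate 1, tubule replicates 1 and 3 and whole body replicate 2.

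Among genes of egg formation other than this pair, the tubule libraries had more genes higher than lower, and the fat body more lower than higher. The 6 lists, written as text patterns on the gene descriptions, matched 48 genes, of which 47 were tested. Of these, 37 were called in fat body against whole body, 28 in tubules against whole body and 41 in fat body against tubules, where 69.1%, 62.8% and 79.8% of all genes tested were called. In fat body against whole body 10 rose and 27 fell, with a median log2 fold change of -1.29 against -0.22 over all genes, where 32.2% of all genes tested were called higher and 36.9% lower (edgeR's quasi-likelihood test, adjusted p under 0.05). In tubules against whole body 19 rose and 9 fell, with a median of 0.25 against -0.12 over all genes, where 32.6% were called higher and 30.2% lower. In fat body against tubules 10 were higher and 31 lower, with a median of -1.70 against -0.24 over all genes, where 38.8% were called higher and 41% lower. The split in tubules depended on scaling, at 16 higher and 12 lower with upper-quartile factors or with library totals, and 15 higher and 14 lower with the authors' size factors. That in fat body against whole body was 6 higher and 30 lower with library totals.

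**Figure D4:**
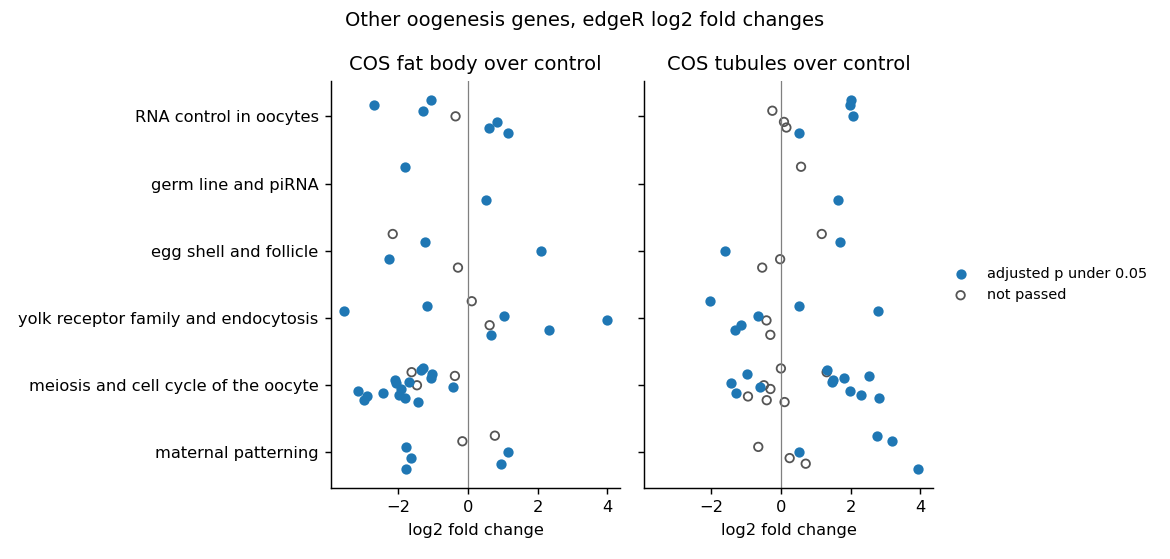
Log2 fold changes from edgeR for the genes of 6 oogenesis lists other than the pair, in fat body over control (left) and tubules over control (right). Each circle is 1 gene, filled where the adjusted p was under 0.05. Among genes of meiosis and the oocyte cell cycle, no filled circle lies above 0 in fat body.

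The list for RNA control in oocytes matched 7 genes by their descriptions, and a role of each in oocytes was not checked. Against the whole body, 3 rose and 3 fell in fat body (32.2% and 36.9% of all genes tested), and 4 rose and 0 fell in tubules (32.6% and 30.2% of all genes tested). Smaug (LOC658574), a translational repressor of maternal messages in Drosophila, averaged 28.5 ± 1.64 CPM in fat body, 152 ± 60.2 in tubules and 36.6 ± 9.77 in whole bodies (SD, n = 3 each), a log2 fold change of 2.06 ± 0.33 in tubules over whole body (SE, adjusted p = 0.00055, edgeR). Orb (LOC661956), a cytoplasmic polyadenylation element-binding protein, averaged 12.8 ± 11.9 CPM in fat body, 326 ± 137 in tubules and 83.0 ± 11.8 in whole bodies. It changed by -2.70 ± 0.61 in fat body (adjusted p = 0.00438, edgeR) and by 1.97 ± 0.59 in tubules (adjusted p = 0.0158, edgeR) against the whole body. The tubule call was lost without tubule replicate 3 (1.66, adjusted p = 0.0522, edgeR) and also without whole body replicate 1 (1.86, adjusted p = 0.0551, edgeR). Staufen homolog 2 (LOC657623), an RNA-binding protein and the most abundant of this list, rose in fat body (0.59 ± 0.15, adjusted p = 0.00689, edgeR; 0.33, adjusted p = 0.097, with library totals) and stood at 0.15 ± 0.15 in tubules (adjusted p = 0.362, edgeR). The bicaudal D-related protein (LOC657193) rose by 1.15 ± 0.19 in fat body (adjusted p = 0.000864, edgeR). In tubules it had 0.51 ± 0.18 (adjusted p = 0.0373, edgeR), a call that 14 of 17 alternatives ended.

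The 19 genes matched for meiosis and the oocyte cell cycle had 0 higher and 16 lower in fat body (32.2% and 36.9% of all genes tested) and 8 higher and 4 lower in tubules (32.6% and 30.2% of all genes tested), against whole body. The meiosis arrest female protein (LOC661475), named for its mouse counterpart that controls oocyte meiosis, was the most abundant, at 71.6, 55.6 and 39.2 CPM in fat body replicates 1 to 3, 482 (replicate 1), 144 (replicate 2) and 621 CPM (replicate 3) in tubules and 59.4, 103 and 54.3 CPM in whole body replicates 1 to 3. It rose by 2.53 ± 0.52 in tubules (adjusted p = 0.00229, edgeR). Cyclin B3 (LOC103312485), a mitotic and meiotic cyclin, rose by 2.81 ± 0.71 in tubules (adjusted p = 0.0069, edgeR) and changed by -1.80 ± 0.69 in fat body (adjusted p = 0.0434, edgeR), and 7 of 17 alternatives ended the fat body call, among them the one without whole body replicate 2 (-1.32, adjusted p = 0.141, edgeR). Mos (LOC103315222), a kinase of oocyte maturation in vertebrates, averaged 0.231 ± 0.233 CPM in fat body, 8.36 ± 3.56 in tubules and 2.13 ± 0.91 in whole bodies. It changed by -3.16 ± 0.74 in fat body (adjusted p = 0.00538, edgeR) and by 1.97 ± 0.59 in tubules (adjusted p = 0.016, edgeR), and the tubule call was lost without tubule replicate 3 (1.57, adjusted p = 0.055). Not all members went that way in tubules: MutS homolog 5 (LOC658305), a meiotic crossover protein, changed by -1.44 ± 0.54 (adjusted p = 0.0402, edgeR; -1.05, adjusted p = 0.126, without whole body replicate 3). Meiosis also runs in the testis, and 47 testis and sperm markers summed to 1381 to 2981 CPM in fat body, 1468 to 2529 CPM in tubules and 2959 to 6471 CPM in whole bodies, where replicate 3, the lowest whole body library for the receptor and bicaudal C, held the 6471 CPM. The part of these markers in the result was not tested.

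Maternal patterning genes had 2 higher and 3 lower of 7 in fat body, near the shares over all genes (32.2% and 36.9% of all genes tested), and 4 higher and 0 lower in tubules (32.6% and 30.2% of all genes tested). The list also caught the bicaudal D-related protein through its name. Orthodenticle-1 (Otd1), a head gene whose RNA is maternal in Tribolium, stood at 5.40, 3.46 and 2.03 CPM in fat body replicates 1 to 3, 43.4, 12.2 and 56.6 CPM in tubule replicates 1 to 3 and 3.69, 6.01 and 2.51 CPM in whole body replicates 1 to 3. It rose by 3.20 ± 0.61 in tubules (adjusted p = 0.00161, edgeR). Caudal (Cad), a posterior patterning gene, rose by 3.93 ± 0.42 in tubules (adjusted p = 6.18e-05, edgeR) and changed by -1.80 ± 0.42 in fat body (adjusted p = 0.00492, edgeR), but at 89.5, 107 and 117 CPM its tubule replicates 1 to 3 did not follow the order of the pair. Hunchback (Hb), a gap gene and the most abundant of the list, stood at 0.96 ± 0.37 in fat body (adjusted p = 0.0436, edgeR; a call that 11 of 17 alternatives ended) and at 0.71 ± 0.37 in tubules (adjusted p = 0.118, edgeR; 1.07, adjusted p = 0.00127, without tubule replicate 2).

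Of 5 genes matched as egg shell and follicle genes, 1 rose and 2 fell in fat body (32.2% and 36.9% of all genes tested) and 1 rose and 1 fell in tubules (32.6% and 30.2% of all genes tested). The list also caught, through their names, a follicle-stimulating hormone receptor and the gene Torso, described as a receptor tyrosine kinase. Torso was the only member called higher in tubules. It rose by 1.69 ± 0.44 in tubules (adjusted p = 0.00816, edgeR) and changed by -1.25 ± 0.45 in fat body (adjusted p = 0.0333, edgeR). Without whole body replicate 2 its fat body change was -1.01 (adjusted p = 0.104, edgeR). The transcription factor Ovo (LOC663753) went the other way, by 2.10 ± 0.19 in fat body (adjusted p = 7.17e-05, edgeR) and -1.60 ± 0.19 in tubules (adjusted p = 0.000115, edgeR). The sulfotransferase pipe (LOC658157) changed by -2.26 ± 0.33 in fat body (adjusted p = 0.000514, edgeR) and had -0.02 ± 0.30 in tubules (adjusted p = 0.946, edgeR). The germ line list matched only a pair of gametocyte-specific factor 1 homologs. LOC100141657 rose by 1.64 ± 0.18 in tubules (adjusted p = 6.64e-05, edgeR) and LOC100142543 changed by -1.80 ± 0.32 in fat body (adjusted p = 0.00131, edgeR). In fat body LOC100141657 stood at 0.52 ± 0.18 (adjusted p = 0.0262, edgeR), and at 0.26 with library totals (adjusted p = 0.258, edgeR). Upper-quartile factors, a replicate block and leaving out any single whole body library also ended that call. In tubules LOC100142543 stood at 0.58 ± 0.30 (adjusted p = 0.118, edgeR).

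Of these oogenesis genes, 27 of 47 (57.4%) had their lowest tubule level in replicate 2, as the pair did, against 36.2% of all genes tested. The full order of the pair in all 3 groups was shared by 5 of the 47 (10.6%), against 2.03% of all genes: cyclin B3 (LOC103312485), the meiosis arrest female protein (LOC661475), gld-2 (LOC662532), Otd1 and Torso, which this order picked out after the values were seen. Gld-2, a poly(A) polymerase that acts with Orb on stored messages in Drosophila, stood at 19.9, 17.4 and 17.3 CPM in fat body replicates 1 to 3, 161 (replicate 1), 82.6 (replicate 2) and 211 CPM (replicate 3) in tubules and 37.8, 48.9 and 26.8 CPM in whole body replicates 1 to 3. Tubule markers summed to 6940, 9170 and 7863 CPM in tubule replicates 1 to 3, and were thus highest in replicate 2, where the pair was lowest. Gut markers, 78 genes, summed to 7489 to 8377 CPM in fat body, 12717, 20257 and 14647 CPM in tubule replicates 1 to 3, and 7894 to 8947 CPM in whole bodies. Gene by gene, 23 of the 78 were called higher and 27 lower in tubules than in whole bodies (edgeR, adjusted p under 0.05). Their median log2 fold change was 0.16, and 32.6% of all genes tested were called higher and 30.2% lower. The part of tubule and gut markers in the levels of the pair was not tested.

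Vitellogenin RNA averaged highest in fat body, where its receptor averaged lowest, though the receptor's fat body and whole body libraries overlapped. Vitellogenin LOC660042 averaged 8602 ± 3085 CPM in fat body, 405 ± 97.3 in tubules and 540.3 ± 182 in whole bodies. Its fat body replicates 1 to 3 stood at 12043, 6082 and 7682 CPM. Vitellogenin LOC658755 stood at 2896, 1051 and 1263 CPM in fat body replicates 1 to 3, and averaged 139 ± 22.9 in tubules and 344 ± 152 in whole bodies. Within fat body, replicate 1 was thus the highest for both vitellogenins, as it was for the receptor. Against the whole body, LOC658755 changed by 2.34 ± 0.46 in fat body (adjusted p = 0.00217, edgeR) and by -1.31 ± 0.44 in tubules (adjusted p = 0.0277, edgeR). In tubules LOC660042 stood at -0.42 ± 0.32 (adjusted p = 0.268, edgeR). Among 8 tested genes of the yolk and endocytosis list, 4 rose and 2 fell in fat body (32.2% and 36.9% of all genes tested), and 2 rose and 4 fell in tubules (32.6% and 30.2% of all genes tested), against the whole body. The low-density lipoprotein receptor-related protein 4 (LOC663741) changed by -2.03 ± 0.27 in tubules (adjusted p = 0.000205, edgeR) and stood at 0.10 ± 0.26 in fat body (adjusted p = 0.723, edgeR). A Rab-5A-like GTPase (LOC661647), of a family that acts in early endosomes, averaged 0.388 ± 0.154 CPM in fat body, 31.5 ± 10.02 in tubules and 4.58 ± 0.25 in whole bodies. It rose by 2.78 ± 0.30 in tubules (adjusted p = 6.08e-05, edgeR), and at 28.4, 42.7 and 23.4 CPM in tubule replicates 1 to 3 it was highest where the receptor was lowest. Among 8 tested genes annotated with the class B repeat, the receptor had the highest log2 fold change in tubules over whole body and the lowest in fat body over whole body. Their median was 0.64 in fat body over whole body and -0.90 in tubules over whole body. Among 11 tested genes with a K Homology domain, bicaudal C had the lowest value in fat body over whole body and the highest in tubules over whole body, and their median was -0.26 in fat body and 0.60 in tubules. Among 17 tested genes with a sterile alpha motif domain, bicaudal C ranked 16 from the highest in fat body and first in tubules. These values within domain families are edgeR's log2 fold changes. For bicaudal C in fat body that was -1.15, against -1.45 between means of log2(CPM + 1), and the lowest gene stood at -2.40. The pair was selected on these same fold changes, so its places within the domain families are a description from which nothing is read.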

How the data were processed

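RNA was sequenced from 9 libraries, 3 per group. TRIzol extraction, DNase I treatment and alignment of the reads to Tcas5.2 are stated per the labels' protocols, and the submitters' processing notes name Trimmomatic 0.32. Neither aligner, counter nor strand setting is given. The authors deposited a table with, per the file headers, an expected count per gene and library (all whole numbers), a normalized signal from DESeq, FPKM, TPM and the authors' log2 fold changes. Library totals were recovered from count, FPKM and gene length, and the authors' size factors from count and signal. The rounded counts entered edgeR 4.0.16 under R 4.3.3 (filterByExpr, TMM factors on the listed genes, quasi-likelihood F test, all 9 libraries in 1 fit, Benjamini-Hochberg adjustment over the 5358 genes kept). The SE of a log2 fold change is its size divided by the square root of F. The test was also run on simulated counts with far fewer changed genes and a fixed spread. That run differs from these data and does not vouch for the calls here. Levels are TMM-scaled CPM. Differences of the pair are between group means of log2(CPM + 1), save edgeR's values within the domain families, and have no test. The genes and lists were chosen with earlier results of these data known. The named genes are the pair, the vitellogenins, the 5 genes nearest to each, and for each list the most abundant tested member and the members with the highest and lowest called changes against control. List matches were not trimmed. The rule also names the most abundant member of each other-tissue list, of which that of the fat body is given. An oogenesis gene that the rule names is not reported here. Of the 5467 identifiers, 5017 matched RefSeq genes of icTriCast1.1, used for symbols only. No sequences are shown. Alternatives were other scalings, DESeq2 1.42.0, no filter, a replicate block, left-out libraries, another pseudocount and the authors' TPM.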

Additional observations from a re-analysis of the deposited data

Results flagged for a closer look

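The vitellogenin receptor (LOC657346) lay below the whole body mean in 3 of 3 fat body libraries and above it in 3 of 3 tubule libraries, a difference of -4.52 log2 units between the organs that was not tested because the gene was chosen on these values. For 8 named oogenesis genes and for vitellogenin LOC658755, the change against the whole body was called in opposite directions in fat body and tubules. For each of them, edgeR's test of fat body over tubules itself passed. That log2 fold change was -6.33 for the Rab-5A-like gene LOC661647, -5.73 for Cad, -5.13 for mos (LOC103315222), -4.67 for orb (LOC661956), -4.61 for cyclin B3 (LOC103312485), -3.06 for gld-2 (LOC662532) and -2.94 for Torso. It was 3.69 for ovo (LOC663753) and 3.65 for vitellogenin LOC658755. Both changes use the same whole body libraries. Of all genes tested, 69.1% were called in fat body against whole body, 62.8% in tubules against whole body and 79.8% in fat body against tubules. The share of all genes called in opposite directions is not given here. Apart from the vitellogenin, these genes were named for the highest or lowest called change of their list or for the pair's library order. That choice favours opposite calls.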

How the results depend on the processing

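The direction of the pair's differences held under every alternative run, and the median log2 fold change of all genes in tubules over whole body was -0.61 with the authors' size factors, against -0.12 with TMM factors. Leaving out 1 library at a time, the receptor's log2 difference ran from 2.55 to 3.58 in tubules over whole body, -2.22 to -0.87 in fat body over whole body and -5.19 to -3.84 in fat body over tubules, and that of bicaudal C from 2.79 to 3.86, -2.20 to -0.58 and -5.42 to -3.80 in that order. Counts of called oogenesis genes ran, leaving out 1 library, from 19 to 30 in tubules over whole body (28 with all libraries), 29 to 40 in fat body over whole body (37) and 38 to 41 in fat body over tubules (41). With a replicate block they were 23, 33 and 40. Same-numbered libraries of different groups had deviations correlated from -0.50 to 0.42, and not every library correlated best with its own number. With 3 libraries per group, these correlations cannot settle whether the numbers pair the libraries. With the authors' TPM, the log2 ratio of receptor to bicaudal C averaged -1.86 in fat body, -3.26 in tubules and -2.53 in whole bodies, against 0.12, -0.04 and 0.22 per coding kilobase. TPM divides by the longer gene length, and the pseudocount of 1 also acts on receptor values that go down to 0.21 TPM. The rank of bicaudal C in likeness to the receptor, 1 as reported, was 6 within groups and 4 over all 9 libraries, and the rank of the receptor in likeness to bicaudal C 4 and 2, both with a pseudocount of 0.1 and with the authors' DESeq signal (the DESeq signal was chosen after the data were seen). With the authors' TPM these ranks were 652, 348, 14 and 20. Without fat body replicate 3 all 4 ranks were 1. For 27 named genes under 17 alternatives, 28 of 459 values lost the call in tubules over whole body, 58 in fat body over whole body and 1 in fat body over tubules, and 5, 9 and 2 gained one; none changed sign with a call. Depth limited bicaudal C in fat body replicate 3, with 21 reads.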
